A study of Caenorhabditis elegans with 8 samples.

Results

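The genes described here are the 6 vitellogenin genes vit-1 to vit-6, which encode the yolk proteins, and rme-2, which encodes the yolk receptor of the oocyte, in dissected gonads of Caenorhabditis elegans. They were taken by name, as 7 of the 46934 gene identifiers counted, with earlier results of these data known. The study set the germline transcriptome of 2 mutants against that of the wild type (wt). The mutants carry sin-3(syb2172), in the gene for the scaffold of the SIN3 co-repressor complex, or hda-3(ok1991), in the gene for a class I histone deacetylase. Each library was made from the pooled gonads of 9 to 12 young adults, dissected in cold water, by a Smart-seq2 type amplification, and read as single reads of 50 bases. Analysed here were replicates 3 to 5 of both wt and sin-3, and the hda-3 replicates numbered 4 and 5, which the labels call biologically independent.

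In adult hermaphrodites the vitellogenins are made by the intestine, secreted into the body cavity and taken up by growing oocytes. RME-2, a member of the LDL receptor superfamily, binds yolk at the oocyte surface and enters with it through clathrin-coated vesicles. The germ line is thus the place where yolk is received and not where its RNA is normally made, and a dissected gonad can carry gut tissue. The genes vit-1 to vit-5 encode the large yolk proteins, and vit-6 encodes a precursor that is cleaved into 2 smaller ones. The rme-2 RNA is also a known target of the RNA-binding protein GLD-1, which holds back its translation in the distal germ line.

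Between 14550417 and 24389531 reads per library were counted on genes. Nuclear ribosomal RNA (rRNA) took 41.8 to 79.0% of them, which left 5110133 to 13268274 reads on other genes. The library of sin-3 replicate 3 stood apart, with the highest rRNA share and the fewest other reads, and the sin-3 log2 fold changes of the 7 genes are given with and without it. Levels are in CPM, counts per 1000000 of a library size scaled by TMM, a factor that sets most genes equal between libraries and ranged from 0.424 to 2.30 here. A second scale, non-rRNA CPM, gives reads per 1000000 reads outside rRNA and uses no such factor. The mutated genes did not contradict the labels: sin-3 had 0, 2 and 1 reads in the sin-3 libraries against 606, 616 and 1274 in wt. The level of hda-3 was 31.9 ± 6.21 CPM in the wt group (SD, n = 3) and 16.3 ± 3.40 CPM in its mutant (n = 2, log2 fold change -0.98, edgeR adjusted p = 0.0178). In non-rRNA CPM this drop was not seen. There hda-3 was at 54.6 ± 15.4 in wt and 51.7 ± 8.53 in its mutant, with overlap.

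In wt gonads the receptor RNA was abundant and the vitellogenin RNAs were scarce. The receptor gene rme-2 (WBGene00004374; chromosome IV, 5470026 to 5473174, plus strand, WBcel235) was at 2289, 2168 and 1927 CPM in wt replicates 3, 4 and 5. It ranked 104th, 110th and 105th of 19983 protein-coding genes by CPM per kilobase of exon in these libraries. Each vitellogenin gene ranked 4941st or lower in every wt library. Per kilobase of exon, rme-2 was at 742 ± 64.2 CPM in wt (SD, n = 3), 422 times the level of vit-2, the highest of the vitellogenins at 1.76 ± 1.46. The order then ran through vit-6 (1.33 ± 1.20), vit-5 (0.618 ± 0.372), vit-3 (0.235 ± 0.184), vit-4 (0.141 ± 0.204) and vit-1 (0.141 ± 0.0696 CPM per kilobase). Each neighbouring pair of vitellogenin genes in this order had overlapping libraries, so the order among them is not resolved in wt.

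The vitellogenin reads of wt were few in absolute terms. The 6 genes together had 452, 216 and 106 reads in wt replicates 3, 4 and 5. The gene vit-4 had 22, 2 and 1 reads and vit-1 had 13, 7 and 9, so their wt levels rest on few reads. Replicate 3 had the most reads for all 6 genes, and the wt libraries differed among themselves most for vit-4 and vit-2.

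**Figure D1:**
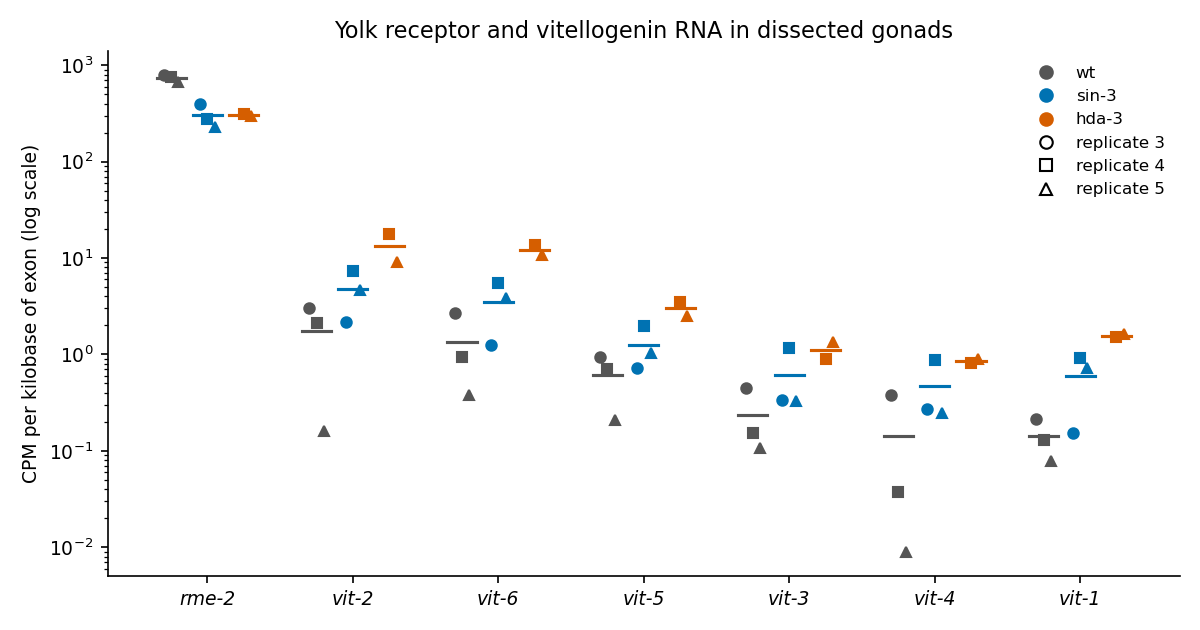
CPM per kilobase of exon (log scale) of rme-2 and the 6 vitellogenin genes in each of the 8 libraries; colours mark the genotype, symbols the replicate number, and short lines the group mean. In wt, rme-2 at 742 lies far above every vitellogenin gene, and in hda-3 the 2 libraries of each vitellogenin gene lie above the 3 of wt.

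All vitellogenin genes except vit-6 are on the X chromosome. The genes vit-4 (WBGene00006928; X, 3558769 to 3563965) and vit-3 (WBGene00006927; X, 3567355 to 3572549), both on the minus strand, are 3389 bases apart with 0 other protein-coding genes wholly between them. The gene vit-5 (WBGene00006929; X, 3403471 to 3408603, plus strand) lies 150165 bases from vit-4. Elsewhere on the X are vit-2 (WBGene00006926; 5101042 to 5106169, plus strand) and vit-1 (WBGene00006925; 7727889 to 7733168, plus strand), while vit-6 (WBGene00006930; 8261157 to 8266459, plus strand) is on chromosome IV. The coding lengths of the vitellogenin genes run from 4809 to 4953 bases, against 2775 for rme-2. The sequences of vit-3, vit-4 and vit-5 are close to one another, as are those of vit-1 and vit-2. Reads that aligned to more than 1 place, 3.03 to 5.57% of a library, were not assigned to a gene, so the level of each single gene of these groups is uncertain. The spans of vit-2, vit-3 and vit-4 each overlap 1 other gene, and those 3 genes had 0 reads in all libraries.

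In hda-3 gonads the vitellogenin RNAs were higher than in wt. Of the 7 genes, 4 rose, namely vit-1, vit-3, vit-5 and vit-6, against 13.5% of the 10302 genes tested that were called higher, 4.86% lower and 18.4% in all. The genes vit-1 and vit-4 entered the test through the mutant libraries; of the other 5 genes, 3 rose. All 6 vitellogenin genes had every hda-3 library above every wt library in CPM, where 25.4% of all genes did. The test was edgeR's quasi-likelihood fit over all 8 libraries, with a gene called at a Benjamini-Hochberg adjusted p under 0.05. In a dissected tissue, more cells of a type cannot be told apart from more RNA per cell.

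The gene vit-6 was at 13.6, 4.76 and 1.90 CPM in wt replicates 3, 4 and 5 and at 69.8 and 53.8 CPM in hda-3 replicates 4 and 5. The lowest hda-3 library was above the highest wt library, and wt replicate 3 was the highest of its group. The log2 fold change was 3.22 (SE 0.82, edgeR adjusted p = 0.0316). The gene vit-1 was at 1.10, 0.653 and 0.398 CPM in wt and at 7.63 and 8.33 CPM in hda-3. Its groups were the most cleanly separated of the 6 (log2 3.52, SE 0.64, edgeR adjusted p = 0.00203). The filter on low counts asked for 2 libraries at 0.450 counts per 1000000 reads without the TMM factor, and on that scale 1 wt library of vit-1 reached it. The gene therefore entered the test through the mutant libraries, where it was high.

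The gene vit-5 was at 4.56, 3.45 and 1.02 CPM in wt and at 17.1 and 12.2 CPM in hda-3. Again the groups did not overlap, with wt replicate 5 lowest (log2 2.32, SE 0.56, edgeR adjusted p = 0.0130). The gene vit-3 was at 2.20, 0.746 and 0.531 CPM in wt and at 4.42 and 6.57 CPM in hda-3. The gap between hda-3 replicate 4 and wt replicate 3 was the smallest of the called genes in proportion (log2 2.28, SE 0.69, edgeR adjusted p = 0.0395).

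The other two vitellogenin genes did not pass the test, although their groups did not overlap. The gene vit-2 was at 14.9, 10.4 and 0.797 CPM in wt and at 87.7 and 45.3 CPM in hda-3 (log2 2.97, SE 0.96, edgeR adjusted p = 0.0731). The third wt library was far under the other two, and the hda-3 libraries also differed from each other. The gene vit-4 was at 1.86, 0.187 and 0.0443 CPM in wt and at 4.06 and 4.46 CPM in hda-3 (log2 2.71, SE 1.02, edgeR adjusted p = 0.0952). The hda-3 libraries were close together and wt replicate 3 was far above the rest of wt; without that replicate vit-4 was at 5.42 (adjusted p = 0.00331). Like vit-1, vit-4 had 1 wt library over the filter's cut-off on the unscaled counts.

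**Figure D2:**
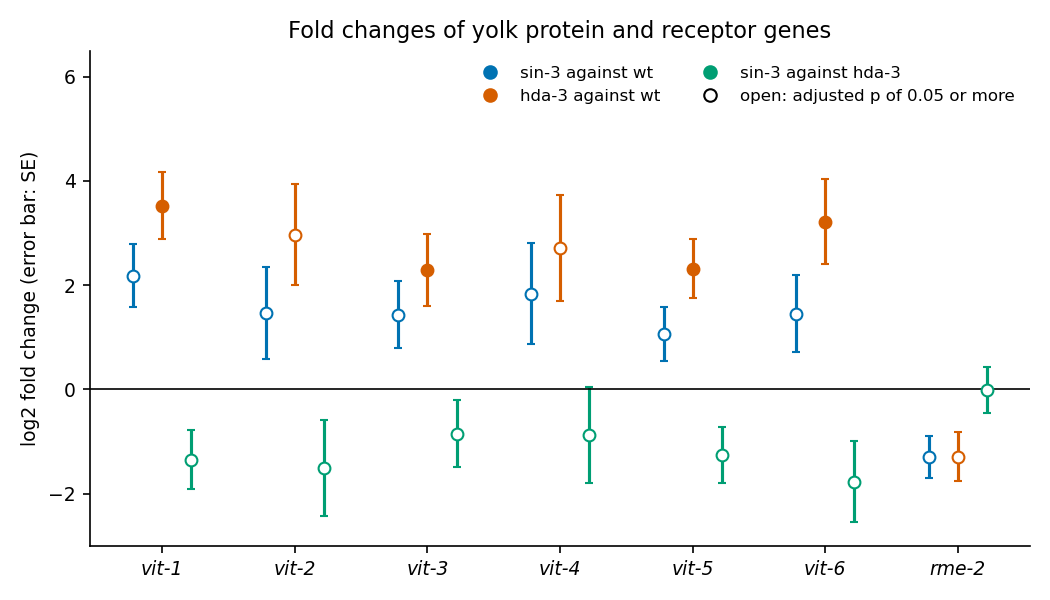
Log2 fold changes with their SE from edgeR for the 7 genes in 3 comparisons; filled points have an adjusted p under 0.05. In hda-3 against wt, vit-1, vit-3, vit-5 and vit-6 are filled between 2.28 and 3.52, while rme-2 lies below 0 in both mutants against wt and near 0 between the mutants.

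The calls depended on single libraries to different degrees. The call of vit-1, a gene tested through its mutant libraries, was kept when any of the 8 libraries was left out (adjusted p up to 0.0205). The call of vit-5 was lost only without hda-3 replicate 4 (2.07, adjusted p = 0.0880). The call of vit-3 was lost without wt replicate 4 (adjusted p = 0.140) or 5 (0.132), or hda-3 replicate 4 (0.0747) or 5 (0.159). That of vit-6 was lost without wt replicate 4 (0.0967), hda-3 replicate 4 (0.224) or 5 (0.135), or sin-3 replicate 5 (0.0867). Without hda-3 replicate 4, 1 of the 7 genes was called, and without hda-3 replicate 5 or wt replicate 4, 2 were. DESeq2 and voom each called all 6 vitellogenin genes higher and rme-2 lower. The shares of all genes that these tools called in hda-3 are not given here, so those counts have no background. The call of vit-6 was also lost with no filter (adjusted p = 0.146), with the 2 groups alone (0.0877) and with the replicate block (0.189), and that of vit-3 with the block (0.0758). With vit-3, vit-4 and vit-5 counted as 1 feature the log2 fold change was 2.35 (adjusted p = 0.0303), and with vit-1 to vit-5 as 1 feature it was 2.81 (adjusted p = 0.0510).

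In non-rRNA CPM the vitellogenin differences were larger, as was the median difference of all genes. The 6 vitellogenin genes together were at 56.9, 35.3 and 8.62 non-rRNA CPM in wt and at 628 and 404 in hda-3. With the library size set to these reads the median log2 fold change of all genes was 0.87, against -0.02 in the fit with TMM. Relative to that median, vit-6 was at 3.34 and vit-1 at 3.58, against 3.24 and 3.55 relative to the median of the TMM fit. All 6 genes again did not overlap with wt on this scale, where 66.5% of all genes were higher without overlap.

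In sin-3 gonads the vitellogenin values were also above wt on average, but the libraries overlapped and no member passed the test. The count was 0 of 7 with edgeR, against 7.6% of all genes called in either direction, 2.68% higher and 4.92% lower. Without adjustment, 2 genes (vit-1 and vit-3) lay higher with p under 0.05 and 1 (rme-2) lay lower, against 26.8% of all genes in either direction. DESeq2 called vit-1 higher and rme-2 lower, and voom called rme-2 lower. In CPM, 0 of the 6 vitellogenin genes had every sin-3 library above every wt library, where 14.7% of all genes did.

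The gene vit-1 came closest among the vitellogenins. It was at 0.774, 4.62 and 3.70 CPM in sin-3 replicates 3, 4 and 5 (log2 2.18, SE 0.61, edgeR adjusted p = 0.05001). Replicate 3 lay inside the wt range and the other two lay above it. Without that replicate the value was 2.59 (adjusted p = 0.00483).

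The same split within the sin-3 group ran through the other genes. The gene vit-2 was at 10.6, 36.3 and 22.8 CPM in sin-3 replicates 3, 4 and 5 (log2 1.47, SE 0.88, edgeR adjusted p = 0.325). The gene vit-6 was at 6.39, 27.7 and 19.6 CPM (log2 1.45, SE 0.74, edgeR adjusted p = 0.256). For both genes replicate 3 lay inside the wt range, and replicates 4 and 5 lay above every wt library. The gene vit-5 was at 3.48, 9.68 and 5.04 CPM, again with replicate 3 inside the wt range (log2 1.06, edgeR adjusted p = 0.214). The genes vit-3 and vit-4 differed from this, since replicates 3 and 5 both lay inside the wt range. They were at 1.64, 5.79 and 1.60 CPM (log2 1.43, edgeR adjusted p = 0.182) and at 1.35, 4.35 and 1.22 CPM (log2 1.84, edgeR adjusted p = 0.251). Without wt replicate 3, vit-4 was at 4.55 (adjusted p = 0.0399). Without sin-3 replicate 3 the log2 fold changes were 1.80 for vit-2, 1.70 for vit-3, 2.09 for vit-4, 1.33 for vit-5 and 1.84 for vit-6, and edgeR called none of these 5 genes (adjusted p = 0.0951 to 0.356).

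In non-rRNA CPM, vit-3 and vit-5 had every sin-3 library above every wt library, where 34.3% of all genes did. The sum of the 6 genes was 49.1, 254 and 213 non-rRNA CPM in sin-3 replicates 3, 4 and 5. On this scale the median of all genes was 0.92, against 0.12 with TMM, and relative to those medians vit-1 was at 2.17 and 2.06. Genes on the X, where vit-1 to vit-5 lie, had a higher median of 0.70 with TMM. With the library size outside rRNA, edgeR called vit-1 (adjusted p = 0.0384) and vit-6 (adjusted p = 0.0482).

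The mutants were also set against each other. The log2 fold changes of the 6 vitellogenin genes in sin-3 against hda-3 ran from -1.77 for vit-6 to -0.85 for vit-3. With edgeR 0 of the 7 genes were called, against 15.3% of all genes. The genes vit-1 and vit-5, 2 of the 7, were lower at an unadjusted p under 0.05, against 24.9% of all genes in either direction, while DESeq2 and voom called 0. The genes vit-1, vit-2, vit-5 and vit-6 had every sin-3 library below every hda-3 library in CPM, as did 22.3% of all genes. The larger vitellogenin difference of hda-3 is thus not a call: for vit-6 the difference of -1.77 had an SE of 0.77 (edgeR adjusted p = 0.210). Both comparisons with wt share the same 3 wt libraries.

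The proportions of the 6 genes among vitellogenin reads varied less than their sum. The sum ran from 106 reads in wt replicate 5 to 7371 in hda-3 replicate 4. Over all 8 libraries vit-2 took 17.0 to 51.4% of vitellogenin reads, vit-6 took 23.6 to 41.2% and vit-5 took 8.95 to 21.7%. The genes vit-1, vit-3 and vit-4 ranged between 0.926 and 11.3% among them. The extremes of vit-2 were both in wt, where the counts were lowest; in the mutants its share was 34.7 to 46.0%. For wt replicate 5, where vit-2 had 18 of the 106 reads, its share was under that of vit-6 and of vit-5.

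**Figure D3:**
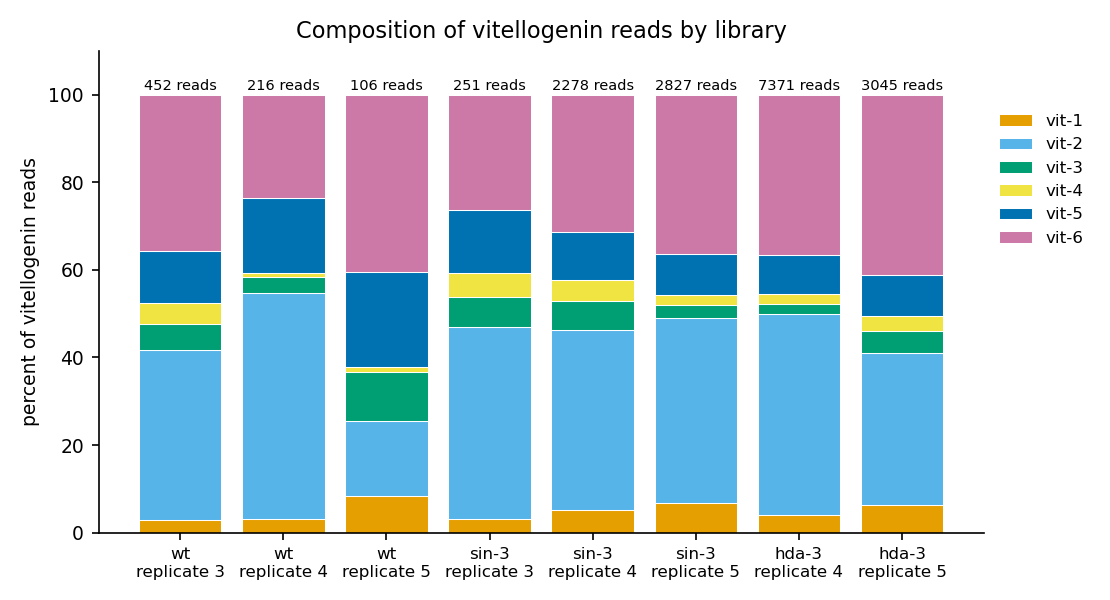
Share of each vitellogenin gene among the reads of all 6 (percent, stacked bars) in each library, with the total read number above each bar. The genes vit-2 and vit-6 make up most reads in all libraries, and wt replicate 5, with 106 reads, has the lowest vit-2 share at 17.0%.

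Summed RNA of other intestine genes was also higher in both mutants than in wt. The 23 intestine markers, among them elt-2 and elt-7 (GATA factors of the gut), act-5 (the actin of its microvilli) and asp-1 (an aspartyl protease), had 157, 119 and 101 reads in wt replicates 3, 4 and 5. The sin-3 libraries held 183, 879 and 2822 such reads, and the hda-3 libraries 6393 and 1260. Summed, they were at 4.47 to 13.3 CPM in wt, 17.7 to 53.9 CPM in sin-3 and 54.1 to 165 CPM in hda-3, with no overlap between wt and either mutant. Within sin-3 the 2 sums differed in order: replicate 5 had the most marker RNA (53.9 CPM) with 53.98 CPM of vitellogenin, and replicate 4 had 34.2 CPM with 88.5. Of the 23 markers, 21 had a higher mean CPM in hda-3 than in wt; the other 2 were ges-1, a gut esterase gene (0.249 CPM in wt, 0.0215 in hda-3), and lipl-4, a lipase gene (0.274 and 0.0861). In sin-3, 17 had a higher mean and 6 a lower one. In wt 4 to 8 of the 23 had 0 reads, with ftn-1 (a ferritin) at 0 in all 3, against 1 to 4 in sin-3 and 1 in each hda-3 library. The defining factors elt-2 and elt-7 had reads in every library, at 0.557 ± 0.290 and 0.358 ± 0.107 CPM in wt (SD, n = 3) and 1.14 ± 0.879 and 2.15 ± 1.94 CPM in hda-3 (n = 2).

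Of the 18 intestine markers that could be tested, 11 rose in hda-3, where 13.5% of all genes did. Of the 18, 15 were over the filter's cut-off in fewer than 2 wt libraries and entered through the mutants, so the count carries that selection. Of the 3 that passed in wt, act-5, cpr-1 and acdh-1, 2 rose, act-5 and cpr-1. Without hda-3 replicate 4, 5 of the 11 calls were kept, and those of act-5, cpr-1, elt-7, fat-6, lys-7 and vha-6 were lost. Without wt replicate 3 or 5, 6 of the 11 were kept. The lowest adjusted p-values were those of asp-1 (4.18, 0.000635), clec-63 (5.18, 0.00267), fat-7 (3.61, 0.00369) and lys-7 (4.98, 0.00551). They encode the protease, a C-type lectin, a fatty acid desaturase and a lysozyme. In sin-3, 2 of 18 rose, lys-7 (5.15, edgeR adjusted p = 0.0145) and clec-63 (3.52, 0.0473), where 2.68% of all genes did, and both entered through the mutants. The call of lys-7 in sin-3 was lost without wt replicate 4 or 5 (adjusted p up to 0.0770), and that in hda-3 without hda-3 replicate 4 (0.0898). The call of clec-63 in sin-3 was lost without wt replicate 4 or 5, either hda-3 library, or sin-3 replicate 4 or 5 (up to 0.152).

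Set against the summed reads of these markers, the vitellogenins did not separate the genotypes. There were 2.88, 1.82 and 1.05 vitellogenin reads per intestine marker read in wt replicates 3, 4 and 5. For sin-3 this ratio was 1.37, 2.59 and 1.00, and for hda-3 1.15 and 2.42, so the 3 groups overlapped. The marker sum leans on a few genes. Over the hda-3 libraries acdh-1, cpr-1, act-5 and asp-1 had 2203, 1482, 1252 and 1064 reads, with elt-2 at 80 and ges-1 at 1. Over the wt libraries these genes had 81, 34, 71 and 39 reads, with elt-2 at 22 and ges-1 at 11. The part of gut, muscle or epidermis RNA in the vitellogenin differences was not tested beyond this ratio. Summed muscle markers were at 9.96 to 18.4 CPM in wt, 10.9 to 23.9 CPM in hda-3 and 20.5 to 31.6 CPM in sin-3. Thus in CPM sin-3 lay above wt without overlap and hda-3 overlapped it. Of 4 muscle genes, unc-22 fell in hda-3 (-2.40, edgeR adjusted p = 0.0411), where 4.86% of all genes did. It was at -0.04 in sin-3 (0.980) and at 2.37 in sin-3 against hda-3 (0.0479). Both calls were lost with voom and with RLE factors. The other muscle genes, unc-54, myo-3 and unc-15, lay higher in both mutants without a call by edgeR. Epidermis and cuticle markers, at 3.32 to 37.2 CPM in wt, overlapped with both hda-3 (12.0 to 57.0) and sin-3 (25.8 to 46.7). Coelomocyte markers, of the scavenger cells that also take up yolk, had at most 4 reads in any wt library and at most 1 in hda-3, against 2 to 20 in sin-3.

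**Figure D4:**
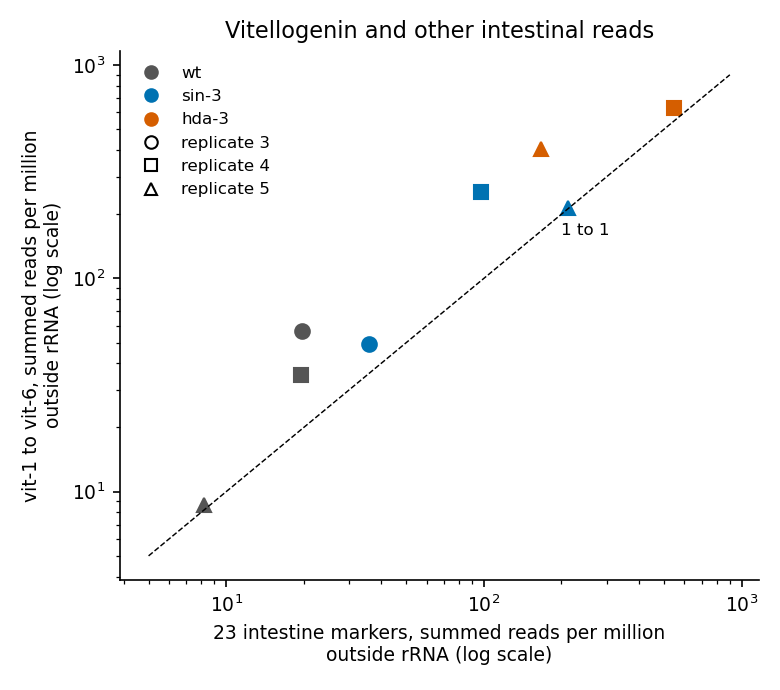
Summed reads of vit-1 to vit-6 against summed reads of 23 other intestine markers in each library, both in non-rRNA CPM on log scales, with a dashed line where they are equal. The libraries lie on or above that line, from wt replicate 5 at 8.62 on the vertical axis to hda-3 replicate 4 at 628.

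The values of the receptor gene lay lower in both mutants, where those of the vitellogenins lay higher. In CPM, rme-2 was at 2289, 2168 and 1927 in wt replicates 3, 4 and 5, at 1139, 802 and 648 in sin-3 replicates 3, 4 and 5, and at 887 and 849 in hda-3 replicates 4 and 5. Every library of either mutant lay under every wt library, where 14.4% of all genes did so in sin-3 and 26.7% in hda-3. The log2 fold change was -1.30 in sin-3 (SE 0.41, edgeR adjusted p = 0.0724) and -1.29 in hda-3 (SE 0.47, edgeR adjusted p = 0.0774), neither of which is a call. DESeq2 gave adjusted p-values of 1.41e-04 and 0.00125, and voom 0.0393 and 0.0271. Under edgeR the value became a call without sin-3 replicate 3 (-1.55, adjusted p = 0.0273 in sin-3; -1.29, 0.0388 in hda-3) and without sin-3 replicate 5 (-1.10, 0.0484; -1.11, 0.0186). Between the mutants the difference was -0.01 (SE 0.45, edgeR adjusted p = 0.995).

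The size of the rme-2 difference depended on the scale. In non-rRNA CPM, rme-2 was at 3410, 3802 and 3540 for wt, at 2304, 2297 and 2558 for sin-3 and at 2923 and 2625 for hda-3. Both mutants stayed under wt without overlap, where 2.91% of all genes did so in sin-3 and 4.69% in hda-3. Spread within groups was small on this scale, at 3584 ± 200.1 in wt, 2386 ± 148 in sin-3 (SD, n = 3 each) and 2774 ± 211 in hda-3 (n = 2). The log2 fold change here was -0.59 in sin-3 (edgeR adjusted p = 0.0756) and -0.37 in hda-3 (0.259). Relative to the median of all genes the values were -1.51 and -1.24, against -1.42 and -1.27 with TMM. Despite this rme-2 kept a high place, between the 81st and the 149th of protein-coding genes by CPM per kilobase over all 8 libraries, and in hda-3 it was 22.5 times the level of vit-2 per kilobase.

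A ratio within each library, which no scaling factor enters, set rme-2 against 23 other maternal RNAs of oocytes. Among them are oma-1 and oma-2 (zinc finger regulators of oocyte maturation), cpg-1 and cpg-2 (eggshell proteoglycans) and chs-1 (chitin synthase). For wt the ratio was 88.4, 70.4 and 136 rme-2 reads per 1000 oocyte reads, for sin-3 it was 42.03, 48.7 and 86.0, and both hda-3 libraries were at 106. The sin-3 libraries overlapped wt through replicate 5, and both hda-3 libraries lay inside the wt range. The log2 difference of means was -0.76 in sin-3 (exact two-sided permutation p = 0.2, with 0.1 the smallest these groups allow). Without sin-3 replicate 3 it was -0.55 in sin-3 (exact permutation p = 0.4). It was 0.17 in hda-3 (exact permutation p = 0.8, with 0.2 the smallest possible).

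That ratio leans on a few abundant genes. The genes perm-2 and perm-4, which encode proteins of the eggshell, fell in hda-3 (-4.22, edgeR adjusted p = 0.00755, and -4.12, 0.00532). They were the 2 of the 23 oocyte genes called there, where 4.86% of all genes fell. Both calls were lost without hda-3 replicate 4 (0.0965 and 0.0806), and that of perm-2 also without hda-3 replicate 5 (0.0533). Together they had 94528, 84199 and 62689 reads in wt and 11695 and 9082 in hda-3. Without them the rme-2 ratio per 1000 reads became 128, 94.6 and 169 for wt, then 64.0, 78.8 and 108 for sin-3, with hda-3 at 110.2 and 112. The log2 differences were then -0.64 in sin-3 (exact permutation p = 0.2) and -0.19 in hda-3 (exact permutation p = 0.8). Against the mean log2 count of the 23 genes, which weighs each gene alike, they were -1.04 and -0.40, without overlap (exact permutation p = 0.1 and 0.2, the smallest possible in each).

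**Figure D5:**
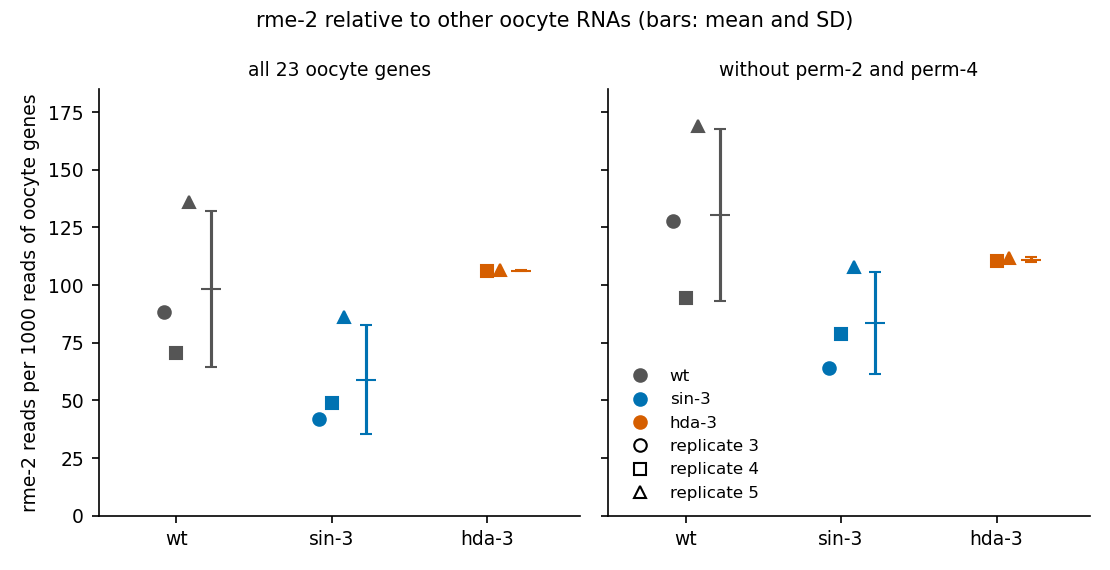
Reads of rme-2 per 1000 reads of other oocyte genes in each library, over all 23 genes (left) and without perm-2 and perm-4 (right); bars give the mean and SD. The 2 hda-3 libraries, at 106 on the left, lie inside the wt range of 70.4 to 136, and the sin-3 libraries run from 42.03 to 86.0.

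Other germline and gonad markers also differed beside the receptor. The RNAs of sperm markers, summed, were at 1.42 to 4.56 CPM in wt, 1.55 to 11.6 CPM in sin-3 and 261 to 321 CPM in hda-3. In hda-3, 3 of 6 tested rose, against 13.5% of all genes, though 5 of the 6 entered the test through the mutants and gsp-3 alone passed in wt. They were the paternal-effect gene spe-11 (7.24, edgeR adjusted p = 3.12e-04) and the sperm phosphatase genes gsp-4 (7.53) and gsp-3 (6.92). These made most of the hda-3 sum, with means of 37.7, 103 and 147 CPM. The other sperm markers had hda-3 means of 1.01 CPM or less. Among them spe-9 lay lower in hda-3 (0.344 CPM) than in wt (0.450 CPM), at -0.34 (edgeR adjusted p = 0.867). Sheath markers, of the contractile somatic cells that wrap the oocytes, were at 23.7 to 91.0 CPM in wt, 34.0 to 62.7 CPM in sin-3 and 7.04 to 8.22 CPM in hda-3. Most of this sum was inx-8, at 45.0 ± 29.7 CPM in wt (SD, n = 3). In hda-3 the innexin genes inx-8 (-3.10, adjusted p = 0.00606) and inx-9 (-2.18, 0.0198) fell, and both calls were lost without either hda-3 library (up to 0.0762 and 0.127). That of inx-9 was also lost without wt replicate 4 (0.0611). The other sheath genes were not called by edgeR in hda-3, with lim-7 at -0.34 (edgeR adjusted p = 0.753) and ceh-18 at 0.95 (0.406). Nor did edgeR call a sheath gene in sin-3. There lim-7 was at 1.86 (0.0580), ceh-18 at 2.09 (0.0758), inx-9 at 1.06 (0.170) and inx-8 at -0.52 (0.509). DESeq2 called lim-7 higher in sin-3, and voom did not. The part of these differences in the lower rme-2 values was not tested.

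Of the 3 genes listed as regulators of oocyte mRNA, gld-1 fell in hda-3 (-0.71, edgeR adjusted p = 0.0456), where 4.86% of all genes did. The direction turned in non-rRNA CPM (0.20, adjusted p = 0.693), and the call was lost without either hda-3 library, any wt library or sin-3 replicate 4. The gld-1 call was also lost with RLE factors, TMM on autosomal genes, no filter, the replicate block and the 2 groups alone. In hda-3, DESeq2 and voom each called cgh-1 lower and not gld-1. In sin-3, 0 of 3 were called with edgeR, against 7.6% of all genes in either direction, with gld-1 at -0.68 (0.0570). There DESeq2 and voom each called cgh-1 lower. An unadjusted p under 0.05 was found for 2 of the 3 genes in sin-3, against 26.8% of all genes. The gene cgh-1, for a DEAD-box helicase of germ granules and stored mRNAs, is named below for its likeness to rme-2.

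Few genes of the pathway around the yolk proteins were called. Of 12 tested regulators of vitellogenin transcription, 1 rose in each mutant, where 2.68% of all genes did in sin-3 and 13.5% in hda-3. In sin-3 this was rict-1, the Rictor subunit of TORC2, at 24.3 ± 3.30 CPM in wt and 70.0 ± 13.9 CPM in sin-3 (SD, n = 3 each; 1.53, edgeR adjusted p = 0.00259). In hda-3 it was pqm-1, a zinc finger factor of the intestine, which went from 3 reads over the 3 wt libraries to 117 over the 2 hda-3 libraries (4.50, adjusted p = 0.00743; 0.107 without hda-3 replicate 4). The gene pqm-1 had 0 wt and 0 sin-3 libraries over the filter's cut-off, so it entered the test through hda-3. Over the 6 regulators that passed in wt the medians were 0.34 in sin-3 and 0.22 in hda-3, against 0.12 and -0.02 for all genes. The gut factor elt-2, which acts on the vitellogenin promoters, was at 0.03 in sin-3 (adjusted p = 0.985) and 1.10 in hda-3 (0.329).

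Secretion and uptake gave few calls. Of the 3 yolk secretion genes, 0 were called in either mutant by edgeR, DESeq2 or voom, and 0 had an unadjusted p under 0.05. Of all genes edgeR called 7.6% in sin-3 and 18.4% in hda-3, and 26.8% and 32.2% had an unadjusted p under 0.05. With 3 genes these counts cannot be set apart from those shares. Of the 3, dsc-4, for the microsomal triglyceride transfer protein, had 8 reads over the wt libraries. Of 18 genes of receptor-mediated endocytosis, 1 rose in sin-3, the AP-2 adaptor subunit gene dpy-23 (1.77, edgeR adjusted p = 0.0369), where 2.68% of all genes rose. At an unadjusted p under 0.05 there were 8 of 18, against 26.8% of all genes. That call was lost without any wt library, either hda-3 library, or sin-3 replicate 4 or 5 (adjusted p up to 0.139), and the list median was 0.39 against 0.12. In sin-3, DESeq2 called 4 of the 18 higher, apa-2, dpy-23, dyn-1 and rme-6, all on the X, and voom called dpy-23. In hda-3, 0 of 18 were called with edgeR and voom, and 3 had an unadjusted p under 0.05 (32.2% of all genes). There DESeq2 called dyn-1, the dynamin gene, higher.

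The other genes of the LDL receptor class were compared with rme-2. Of 4 tested in hda-3, 1 fell, lrp-2 (-1.05, edgeR adjusted p = 0.0488), where 4.86% of all genes did. It was not called by DESeq2 or voom, or without either hda-3 library, wt replicate 3 or 4, or sin-3 replicate 4 or 5 (adjusted p up to 0.263), and was at -0.14 in non-rRNA CPM. In sin-3, 0 of 4 were called by edgeR, DESeq2 or voom, where edgeR called 7.6% of all genes in either direction. An unadjusted edgeR p under 0.05 was found for 1 of the 4, against 26.8% of all genes. That was egg-2, an oocyte surface protein needed for fertilization, at -0.77 in sin-3 (edgeR adjusted p = 0.0758) and -0.78 in hda-3 (0.0732). Of the 23 oocyte maternal genes, 1 rose in sin-3, egg-3 (0.73, edgeR adjusted p = 0.0456), against 2.68% of all genes. That call was lost without any wt library, either hda-3 library, or sin-3 replicate 4 or 5 (up to 0.131). The list medians of the oocyte genes were -0.21 in sin-3 and -0.78 in hda-3, against -1.30 and -1.29 for rme-2. In hda-3, perm-2, perm-4, cpg-2 (-1.57), cpg-1 (-1.46) and cbd-1 (-1.32) lay under rme-2. In sin-3 the lowest of the list was puf-5 (-1.03, and -1.08 in hda-3).

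The genes whose pattern over the 8 libraries was most like that of 3 members were listed by the root mean square difference of centred log2 CPM. For vit-6 the nearest were vit-1 (0.43), asp-2 and cpr-6 (0.46 each), lys-2 (0.48) and F58F12.3 (0.50), where the median gene was at 1.72. For vit-2 they were vit-6 (0.64), F22B5.5 (0.66), asp-2 (0.71), lgmn-1 (0.73) and cpr-6 (0.74), with a median gene at 1.95. For rme-2 they were skr-1 (0.11), cyn-10 (0.12), ubc-9 and gst-1 (0.15 each) and cgh-1 (0.16), with a median gene at 0.87. The receptor gene rme-2 was at 2.18 from vit-6 and at 2.36 from vit-2, and the other vitellogenin genes were not listed in this way. All genes share the same libraries and scaling factors, and these values are a description.

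In hda-3 the value of vit-6, the vitellogenin gene on an autosome, lay within the range of those on the X, with no test of their difference. There, vit-6 at 3.22 lay between vit-1 at 3.52 and vit-2 at 2.97, both on the X. The other X-linked vitellogenin genes were lower, with vit-4 at 2.71, vit-5 at 2.32 and vit-3 at 2.28. Among all tested genes 3.62% of those on the X and 14.8% of those on autosomes were called higher in hda-3, and 4.97% and 2.38% in sin-3. The median log2 fold change of X genes was 0.32 in hda-3 and 0.70 in sin-3, against -0.02 and 0.12 for all genes.

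The authors' deposited tables, from DESeq2 on each mutant with wt, give calls for the same genes. They list 12398 genes for hda-3 and 13084 for sin-3. The share of all genes that pass there is not given here, so the counts below have no background. In the authors' deposited table for hda-3, 5 vitellogenin genes pass an adjusted p of 0.05, with vit-6 at 4.44 and vit-2 the exception (adjusted p = 0.0604), and rme-2 is at -1.07 (adjusted p = 1.21e-05). In the authors' deposited table for sin-3, vit-1 (1.99, adjusted p = 0.0349) and vit-4 (2.92, adjusted p = 0.0165) pass, and rme-2 is at -1.31 (adjusted p = 1.86e-05).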

How the data were processed

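The authors deposited raw integer counts for each gene and library, as the files show. The submitters' processing notes name DESeq2 1.36.0, HTSeq 0.7.2, STAR 2.7.3a and fastp 0.20.1. Settings, build, annotation and strandedness are not given in the sources used. The authors also deposited 2 DESeq2 tables with a mean normalised signal, a log2 fold change, a test score, and p-values, per the file headers, which were only quoted. Coordinates and exon lengths are those of WBcel235 (Ensembl 115), which held 46923 of 46934 identifiers; 44112 had a symbol. Counter lines that name no gene stayed out of library sizes: reads on no feature were 1.06 to 2.27% and ambiguous reads 0.673 to 1.55% of a library.

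The main test was edgeR 4.0.16 in R 4.3.3 (quasi-likelihood, robust, TMM factors) with 1 term per genotype over all 8 libraries, which share 1 dispersion estimate. The filter was filterByExpr (minimum count 10, minimum total 15), and p-values were adjusted over all 10302 genes by Benjamini and Hochberg. The SE was computed as |log2 fold change| over sqrt(F). The fit was tested on simulated data with known changes. Alternatives were RLE factors, TMM on autosomal genes, no filter, a minimum count of 30, DESeq2 1.42.0, voom (limma 3.58.1), the 2 groups alone, a replicate block, merged vitellogenin genes, each library left out, and, chosen after seeing the data, library sizes outside rRNA and an oocyte sum without perm-2 and perm-4. The rme-2 ratio was tested by exact permutation (SciPy 1.17.1). No library was a copy of another.

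The members, gene lists and rules were chosen with earlier results of these data known. Named genes are all members, the 2 mutated genes, the 5 genes most like vit-2, vit-6 and rme-2, and in each list up to 4 called genes per direction or, with none, the gene of lowest p, and the markers with most reads or at 0; a few others are named for their roles.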

Additional observations from a re-analysis of the deposited data

How the results depend on the processing

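In every fit, the 114 alternative values of the 6 vitellogenin genes per comparison kept their sign. Genes called in sin-3 against wt were 1374 with no filter, 1302 with DESeq2 and 1375 with library sizes outside rRNA, against 783, and 200 to 1453 without 1 library. In hda-3 against wt they were 1048 to 2673 without 1 library, against 1891, and between the mutants 1091 to 2198, against 1575. Higher calls were 276 of 783 in sin-3 and 1390 of 1891 in hda-3, but 1321 of 1375 and 2041 of 2075 with library sizes outside rRNA. Of the 7 members, the number called in sin-3 was 1 with RLE factors, a minimum count of 30, voom, or vit-3, vit-4 and vit-5 merged, 2 with DESeq2 or library sizes outside rRNA, 3 with no filter, and 0 to 2 without 1 library. In hda-3 it was 7 with DESeq2 and voom, 1 with vit-1 to vit-5 merged, and 1 to 6 without 1 library. The numbers of all genes called by DESeq2 and voom in hda-3 are not given here. Between the mutants it was 2 with no filter. The sign of rme-2 between the mutants turned with a minimum count of 30 (0.023), voom (0.045) and without sin-3 replicate 5 (range without 1 library -0.26 to 0.01). The rme-2 ratio of hda-3, 0.168, was -0.37 per read outside rRNA, -0.399 against mean log2 counts, -0.193 without perm-2 and perm-4, and -0.044 to 0.429 without 1 library. The cause of these moves was not tested.

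Whether the replicate numbers pair the samples is not settled. Correlations of deviations from the group mean were -0.0908, 0.0532 and 0.109 for same-numbered wt and sin-3 libraries. They were 0.0824 and 0.292 for wt and hda-3, and -0.00191 and -0.2 for sin-3 and hda-3. Libraries of unlike number ran from -0.292 to 0.205. With 2 or 3 libraries per group the deviations are bound to one another, so these values cannot decide it. With the replicate block 2 members were called in hda-3 and 0 in sin-3, among 1353 and 983 genes. Few wt reads limit vit-1, vit-3 and vit-4.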
